A study of Mus musculus with 9 samples.

Results

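Transcripts of 8 genes whose products make up, cut or accompany the protein deposits of neurodegenerative disease were followed in the aging mouse brain: App, Aplp1, Aplp2, Bace1, Psen2, Mapt, Prnp and Grn. They were picked by name, with earlier results of these data known, as 8 of the 49315 genes of the count table. All 8 passed the filter on low counts, among 18492 genes tested. Whole brains of wild-type C57BL/6J mice, males by the study's methods, were compared between young (5 mice, labelled 3 months, given as 3 or 4 months in the methods) and old animals (4 mice, 33 months). The labels name no disease allele and no treatment for either age, and each library came from polyA-selected RNA of 1 brain, with ERCC spike-in. The mice came from a vendor or from in-house breeding, and which came from where is not given in the sources used here. A library held from 14229259 to 21150439 counts on genes. The deepest, young replicate 4, stood apart from the other young libraries in microglial and astrocyte markers, so results that rest on it are given with and without it.

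Amyloid-beta is cut from the amyloid precursor protein, the product of App, by beta-secretase (Bace1) and then by gamma-secretase, whose catalytic subunit is a presenilin (Psen2). Aplp1 and Aplp2 encode the other two precursor-like proteins of the family, which lack the amyloid-beta stretch but are cut by the same kinds of enzymes. Mapt encodes the microtubule-binding protein tau, Prnp the prion protein of the cell surface, and Grn progranulin, a secreted and lysosomal protein made by microglia and neurons. In whole tissue, a change in the number of cells of a type and a change in RNA per cell cannot be told apart.

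In GRCm38 coordinates of GENCODE M21, all 8 are protein-coding. App (ENSMUSG00000022892) spans 84949685 to 85173766 on chromosome 16 and Aplp1 (ENSMUSG00000006651) spans 30434982 to 30445535 on chromosome 7. Aplp2 (ENSMUSG00000031996) spans 31149557 to 31211815 on chromosome 9 and Bace1 (ENSMUSG00000032086) spans 45838580 to 45864399 on chromosome 9. Psen2 (ENSMUSG00000010609) spans 180227004 to 180263438 on chromosome 1 and Mapt (ENSMUSG00000018411) spans 104231390 to 104332090 on chromosome 11. Prnp (ENSMUSG00000079037) spans 131909928 to 131938429 on chromosome 2 and Grn (ENSMUSG00000034708) spans 102430315 to 102437048 on chromosome 11. Counts cover the exons of a gene.

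Levels of 7 of the 8 transcripts were close in young and old brain, and their 95% intervals lay between -0.21 and 0.14 on the log2 scale. Only Grn passed an adjusted p of 0.05, by the quasi-likelihood test of edgeR, adjusted over all 18492 genes after Benjamini and Hochberg, and it did so narrowly and not under every setting. None of the 8 passed the study's second threshold, an absolute log2 fold change over 0.58. The 1 of 8 stands beside 11.0% of all tested genes with an adjusted p under 0.05, and the 0 of 8 beside 2.68% past both thresholds. At an unadjusted p under 0.05 there was 1 of 8, beside 26.0% of all genes. DESeq2's Wald test also put 1 member under an adjusted p of 0.05 and none past both thresholds. Values in the 2 ages overlapped for all 8 genes, so 0 of 8 stood apart, where 12.6% of all tested genes did not overlap between the ages (6.50% higher and 6.08% lower in old brain).

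**Figure D1:**
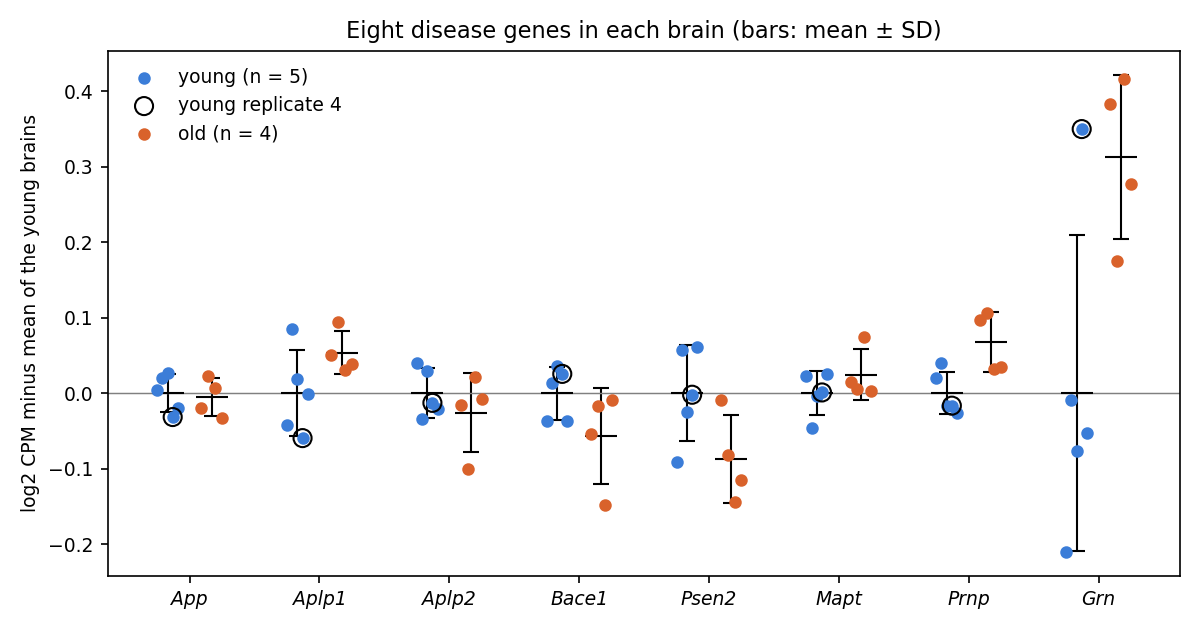
Each point is 1 brain, plotted as its log2 CPM (library-scaled counts, prior count 2) minus the mean of the young brains, for the 8 genes along the x axis; bars give the mean and SD of 5 young (blue) and 4 old (orange) brains, and rings mark young replicate 4. For 7 genes young and old points lie close together around 0, whereas the Grn points of old brains and of young replicate 4 lie above those of the other young brains.

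Promoter sequences were available in the RefSeq set (GRCm38.p6) for 6 of the 8 genes, and are shown for the precursor family, for Prnp and for Grn. Any link of these sequences to the age differences was not tested. The windows covered 250 bases before and 50 bases after the annotated start. Given here, 5′ to 3′ on the strand of the gene, are the bases before the start that lie in no annotated exon, with GC boxes (GGGCGG on either strand) in capitals. These are bases chr16:85173767-85173957 (minus strand) for App, chr7:30445583-30445832 (minus) for Aplp1, chr9:31211849-31212098 (minus) for Aplp2, chr2:131909678-131909927 (plus) for Prnp and chr11:102430257-102430314 (plus) for Grn.
App: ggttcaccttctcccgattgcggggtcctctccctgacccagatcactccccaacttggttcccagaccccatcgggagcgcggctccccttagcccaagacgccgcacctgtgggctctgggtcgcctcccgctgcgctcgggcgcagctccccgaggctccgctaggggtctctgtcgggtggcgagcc
Aplp1: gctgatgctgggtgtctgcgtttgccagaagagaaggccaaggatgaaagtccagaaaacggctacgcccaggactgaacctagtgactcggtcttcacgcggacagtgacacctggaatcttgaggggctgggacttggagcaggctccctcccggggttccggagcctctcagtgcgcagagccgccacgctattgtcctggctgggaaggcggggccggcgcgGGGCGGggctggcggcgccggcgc
Aplp2: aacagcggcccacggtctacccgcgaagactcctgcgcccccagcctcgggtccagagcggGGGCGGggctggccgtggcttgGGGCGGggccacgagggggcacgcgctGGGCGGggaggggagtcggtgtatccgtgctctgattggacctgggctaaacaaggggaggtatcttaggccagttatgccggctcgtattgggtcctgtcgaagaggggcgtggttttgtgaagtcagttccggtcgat
Prnp: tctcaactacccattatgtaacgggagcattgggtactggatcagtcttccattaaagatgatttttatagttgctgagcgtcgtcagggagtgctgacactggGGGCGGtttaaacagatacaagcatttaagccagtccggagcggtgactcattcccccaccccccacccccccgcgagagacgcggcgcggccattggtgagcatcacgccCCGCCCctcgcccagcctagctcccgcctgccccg
Grn: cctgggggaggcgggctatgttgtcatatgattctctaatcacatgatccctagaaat

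The whole windows were rich in G and C, at 71.0% for App, 68.7% for Aplp1, 67.0% for Aplp2, 60.0% for Prnp and 56.3% for Grn, where the median of 32851 windows was 52.7%. The 2 windows of Psen2 differed, at 65.7% and 47.7%. GC boxes numbered 1 in App, 2 in Aplp1, 4 in Aplp2, 3 in Prnp, 1 in Grn and 4 and 0 in Psen2, and 35.7% of all windows held at least 1. The TATA box TATAAA occurred once, in Prnp (13.6% of all windows), CCAAT 2 times each in Aplp2 and Prnp and once in Grn (37.4%), and the E box CACGTG in the second window of Psen2 (7.15%), on either strand in each case. The stretches given for App and Grn held no GC box, so that their single one lay in the part not shown.

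By counts not divided by gene length, the precursor family was the largest part of the group. In CPM, the counts scaled to library size with TMM factors, App took 1790.5, 1809, 1819, 1746 and 1761 CPM in young replicates 1 to 5 and 1761, 1814, 1794 and 1744 CPM in old replicates 1, 3, 4 and 5. Young and old brains were interleaved over this whole range. Young brain averaged 1785 ± 31.0 CPM (SD, n = 5) and old brain 1778 ± 31.4 CPM (SD, n = 4). On the log2 scale they differed by -0.0056 (standard error 0.033, 95% interval -0.075 to 0.064, edgeR, adjusted p = 0.94). The spread between mice of one age, 1.74% of the mean in young and 1.76% in old brain, was larger than the difference of -0.38% between the ages.

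Aplp1, a precursor-like protein found mainly in neurons, took 1021, 1115, 1065, 1009 and 1050.1 CPM in the young and 1089, 1123, 1074 and 1079 CPM in the old brains. The highest value belonged to an old and the lowest to a young mouse, but young replicate 2 lay above 3 of the 4 old mice. The log2 fold change was 0.053 (standard error 0.037, 95% interval -0.027 to 0.13, edgeR, adjusted p = 0.41). Aplp2, the more widely expressed relative, ran from 635 to 669 CPM in young and from 607 to 660.2 CPM in old brain. Its log2 fold change was -0.026 (standard error 0.035, 95% interval -0.10 to 0.050, edgeR, adjusted p = 0.70), and the lowest value was that of old replicate 3. The 3 genes together took 3400 to 3560 CPM in young and 3471 to 3543 CPM in old brain. Of that sum, App held 50.8% to 51.4% in young and 50.3% to 51.2% in old brain. These are shares of counts, not divided by gene length, and not of transcript numbers.

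Of the proteases, Bace1 took 95.9, 99.3, 101, 100.1 and 95.9 CPM in young and 94.7, 97.2, 88.8 and 97.8 CPM in old brain. The lowest 2 values were old, and the other two old mice lay among the young. The log2 fold change was -0.057 (standard error 0.038, 95% interval -0.14 to 0.025, edgeR, adjusted p = 0.38). Exons of Bace1 (chromosome 9, 45838580 to 45864399 in GRCm38) share 975 bases with Rnf214 on the opposite strand, and the strand setting of the counting is not given for these libraries. Rnf214 itself had a log2 fold change of -0.0086 (edgeR, adjusted p = 0.93).

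Psen2 was the least abundant member, with 252 to 389 counts per library. Its CPM was 17.7, 19.6, 18.5, 18.8 and 19.6 in young and 18.7, 17.8, 17.02 and 17.4 in old brain, so that 2 of the 5 young mice lay within the old range and 3 above it. The log2 fold change of -0.088 had the widest interval among the 7 genes that were not called (standard error 0.059, 95% interval -0.21 to 0.038, edgeR, adjusted p = 0.38).

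Tau transcripts varied by 1.97% of their mean between young and 2.36% between old mice. Mapt took 615, 587, 604, 606 and 617 CPM in young and 612, 608, 638 and 607 CPM in old brain, where old replicate 4 stood above all other mice and the remaining old values lay among the young. The log2 fold change was 0.025 (standard error 0.033, 95% interval -0.045 to 0.095, edgeR, adjusted p = 0.69). Counts here are summed over a whole gene, so the shares of tau isoforms, or of precursor isoforms, were not analysed here.

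For the prion protein gene the old values sat at the upper edge of the young ones. Prnp took 620.4, 629, 605, 605 and 601 CPM in young and 655, 659, 626 and 627 CPM in old brain, and 1 young mouse, replicate 2, was above 2 of the old. The log2 fold change was 0.068 (standard error 0.033, 95% interval -0.0037 to 0.14, edgeR, adjusted p = 0.22). A two-sided exact permutation test over all splits of the 9 mice gave an unadjusted p of 0.032, where the smallest possible is 0.00794. This same test gave 0.040 for Grn and at least 0.071 for each of the other 6 genes.

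**Figure D2:**
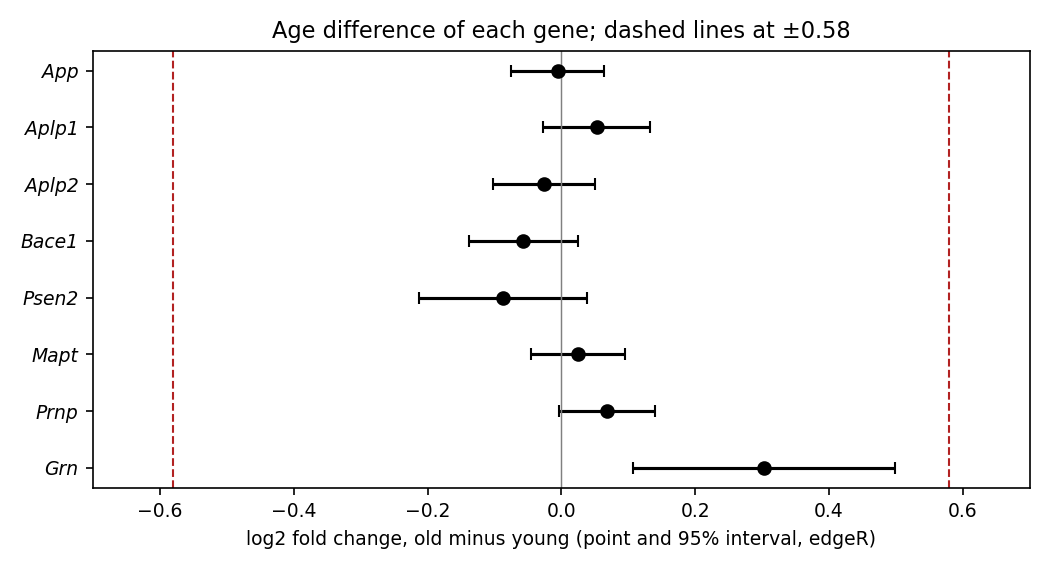
Points give the log2 fold change between old and young brain for each gene, lines the 95% interval from edgeR, and dashed lines the threshold of 0.58 in either direction. All 8 intervals stay inside the dashed lines, and the Grn interval, 0.11 to 0.50, alone does not reach 0.

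The 95% interval lay inside ±0.58 on the log2 scale for 8 of 8 members and for 13302 of all tested genes (71.9%). The median absolute log2 fold change was 0.055 over the members and 0.11 over all genes, and the median standard error was 0.036 and 0.084. On mean log2 CPM, App, Aplp1, Aplp2, Mapt and Prnp each exceeded more than 99% of tested genes, Bace1 86.9%, Grn 75.7% and Psen2 53.4%. The part of this abundance in the small standard errors was not tested.

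Grn was the exception among the 8. It took 42.0, 48.2, 46.0, 61.9 and 46.8 CPM in young replicates 1 to 5 and 63.4, 54.9, 64.8 and 58.9 CPM in old replicates 1, 3, 4 and 5. Of the young mice, 4 lay below all old mice, and young replicate 4 lay among the old. Grn averaged 49.0 ± 7.59 CPM at the young (SD, n = 5) and 60.5 ± 4.53 CPM at the old age (SD, n = 4), and so rose by 23.3%, or 0.30 as a log2 fold change (standard error 0.091, 95% interval 0.11 to 0.50, edgeR, adjusted p = 0.047).

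This call depended on single mice and on the handling of the spread. Without young replicate 4 the young mean was 45.8 ± 2.69 CPM (SD, n = 4) and the log2 fold change 0.41 (edgeR, adjusted p = 0.00091), whereas leaving out 7 of the other 8 mice in turn put the adjusted p between 0.075 and 0.11 (edgeR). With robust quasi-likelihood dispersions, an alternative chosen after the data were seen, the adjusted p was 0.0998 over all 9 mice (edgeR) and 0.00024 without young replicate 4. DESeq2's Wald test gave an adjusted p of 0.017 over all 9 mice. Young replicate 4 stood apart in markers of these same data and had the highest Grn of the young mice. Leaving it out therefore widens the difference and narrows the young spread, and is no separate support for the call. For the other 7 genes, log2 fold changes without young replicate 4 were -0.014 for App, 0.038 for Aplp1, -0.029 for Aplp2, -0.051 for Bace1, -0.089 for Psen2, 0.024 for Mapt and 0.063 for Prnp, and none was called by edgeR. Exons of Grn (chromosome 11, 102430315 to 102437048) share 68 bases with Fam171a2 on the opposite strand, whose log2 fold change was -0.11 (edgeR, adjusted p = 0.15).

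**Figure D3:**
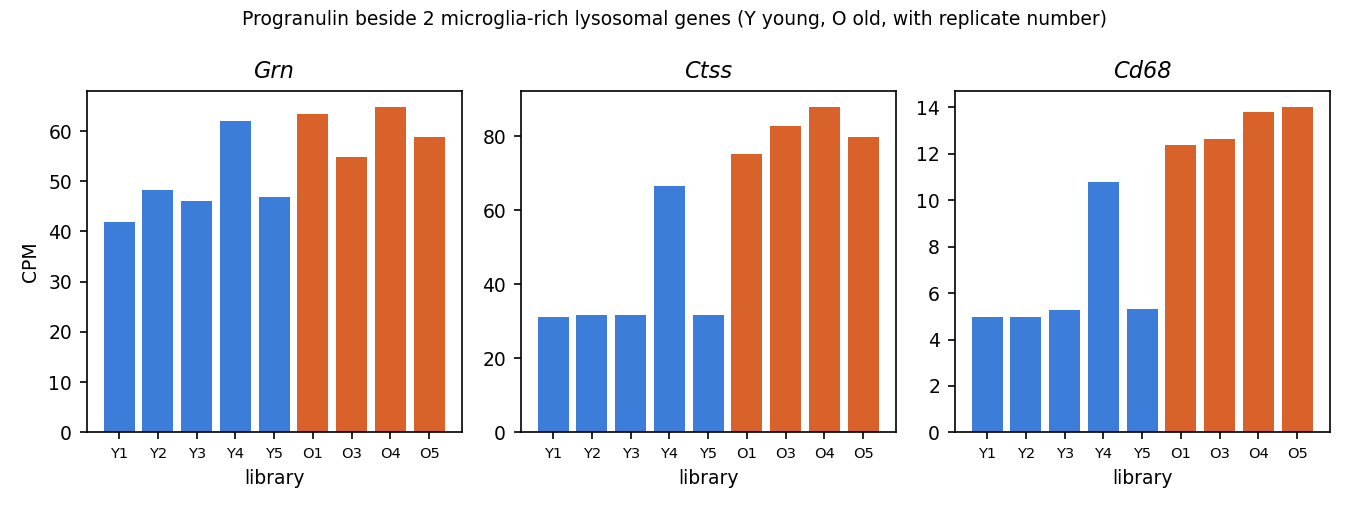
Bars give CPM in each library (Y, young; O, old, with the replicate number) for Grn and for 2 genes abundant in microglia, Ctss and Cd68. In all 3 panels young replicate 4 (Y4) stands above the other young brains, at 61.9 CPM for Grn, 66.6 for Ctss and 10.8 for Cd68.

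Like Grn, the summed markers of microglia were higher in old brains and in young replicate 4 than in the other young brains. The lysosomal protease gene Ctss, which is on neither marker list, was at 66.6 CPM in young replicate 4. The remaining young mice ran from 31.1 to 31.8 CPM and old mice from 75.1 to 87.9 CPM. Within the old mice the order differed, as Ctss was lowest in replicate 1 and Grn in replicate 3. Cd68, a lysosomal membrane protein of phagocytes, was at 10.8 CPM in young replicate 4, at 4.96 to 5.31 CPM in its age mates and at 12.4 to 14.03 CPM at the old age. Over the 9 markers of activated microglia the level summed to 162 CPM in young replicate 4, to between 91.7 and 108 CPM in its age mates and to between 140 and 189 CPM at the old age, and 4 of the 9 were higher in old brain at an adjusted p under 0.05 (edgeR). Over the 8 homeostatic markers it was 294 CPM, 213 to 239 CPM and 284 to 340.1 CPM, with 3 of 8 higher. No marker of either list was too low to be tested. Among all tested genes, 6.20% were higher at this threshold. The part of the microglia in the rise of Grn was not tested.

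Markers of other cells were read as well, since the members differ in the cells that make them. The 10 neuron markers summed to 6170 to 6528 CPM in young and 5999 to 6448 CPM in old brain, with 3 of 10 lower and none higher. For 8 astrocyte markers (1 higher), sums were 4319 to 5003 CPM in young and 4779 to 4997 CPM in old brain, and the young values reached no further than 4409 CPM without replicate 4. Sums were 6177 to 7243 and 6730 to 8311 CPM for 8 oligodendrocyte markers (3 higher, 2 lower). Precursors of oligodendrocytes gave 117 to 125 and 100.3 to 106 CPM over 4 markers (1 lower), endothelial cells 209 to 227 and 233 to 260 CPM over 6 (3 higher), and the choroid plexus 508 to 664 and 424 to 716 CPM over 5 (1 lower). All 5 blood genes were higher in old brain, from 86.1 to 116 CPM in young to 128 to 409 CPM in old brain. Beside these marker counts stand 6.20% higher and 4.83% lower among all tested genes. The part of these shifts in the values of the 8 genes was not tested.

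Within a library, the ratio of 1 transcript to another does not depend on how libraries are scaled. The ratios here are of CPM, not divided by gene length, and so are not ratios of transcript numbers. Relative to App, Aplp1 was at 0.570, 0.616, 0.586, 0.578 and 0.596 in the young and 0.618, 0.619, 0.599 and 0.619 in the old brains. Of the old mice, 3 lay above all young ones and the remaining one among them. The difference was 0.059 on the log2 scale (two-sided exact permutation test, p = 0.040, adjusted p = 0.16 over 4 ratios), so it did not pass after adjustment. The log2 differences were -0.021 for Aplp2 to App (exact p = 0.63, adjusted 0.63), -0.052 for Bace1 to App (exact p = 0.22, adjusted 0.30) and -0.082 for Psen2 to App (exact p = 0.13, adjusted 0.25). The CPM ratio of Bace1 to App ran from 0.0536 to 0.0574 in young and 0.0496 to 0.0561 in old brain. That of Psen2 to App ran from 0.00993 to 0.0112 in young and 0.00955 to 0.0107 in old brain.

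Levels can be compared between genes only per length. In CPM per kilobase of annotated exon, young brain held 349 ± 13.9 of Aplp1, 261 ± 5.16 of Prnp, 137 ± 2.39 of App, 111 ± 2.52 of Aplp2, 80.5 ± 1.59 of Mapt, 15.5 ± 0.38 of Bace1, 14.1 ± 2.19 of Grn and 4.35 ± 0.19 of Psen2 (SD, n = 5). Old brain held 362 ± 7.23, 274 ± 7.55, 137 ± 2.41, 109 ± 3.90, 81.8 ± 1.93, 14.9 ± 0.65, 17.4 ± 1.30 and 4.09 ± 0.17 (SD, n = 4) of the same genes. Neighbours in this order did not overlap in any library, except Bace1 and Grn, which changed places between the ages. The value of App here rests on an annotated length of 12996 bases. The deposited TPM values imply 3128 bases for App, and with that length App came first.

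The place of App depended on which length was used. The count of a gene divided by its deposited TPM value gives, within a library, the gene length that the authors used up to a common factor. Relative to Aplp1 this length matched GENCODE M21 for the other members, at 1.95 for Aplp2, 2.10 for Bace1, 1.44 for Psen2, 2.496 for Mapt, 0.777 for Prnp and 1.15 for Grn on both sides. For App the deposited values imply 1.04 times the length of Aplp1, or 3128 bases, where the annotation gives 12996 bases (4.31 times). With the shorter length App came first, at 571 ± 9.92 CPM per kilobase in young (SD, n = 5) and 568 ± 10.03 in old brain (SD, n = 4), and it overlapped with no other gene. In the deposited TPM values App was also first, at 1500.1 ± 305 in young and 1315 ± 100.5 in old brain, where its range overlapped that of Aplp1.

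**Figure D4:**
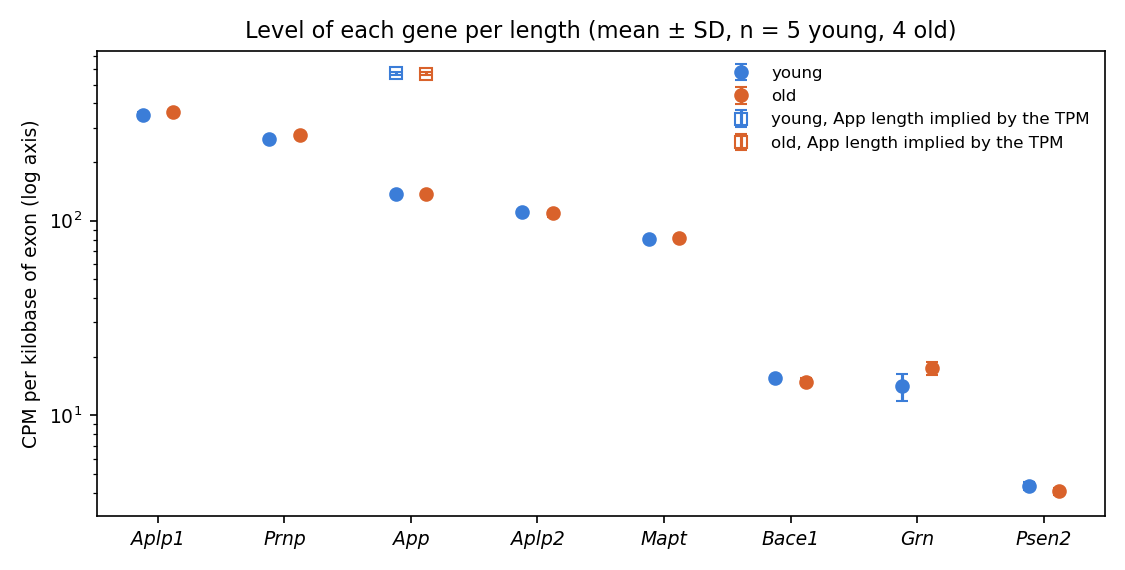
Points give the mean and SD of CPM per kilobase of exon on a log axis for each gene in 5 young (blue) and 4 old (orange) brains; open squares give App with the length that the deposited TPM values imply. App follows Aplp1 and Prnp by annotated length, at 137 in young brain, and first by the implied length, at 571.

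The deposited TPM values gave lower log2 fold changes for the members than the counts did. A single gene, Gm23935, held 8.69% to 39.5% of all TPM and 0.149% to 1.09% of all counts per library, and on log2(TPM + 1) the median of all genes was -0.14. On that scale the log2 fold changes were -0.11 for Aplp1, -0.14 for Mapt and -0.097 for Prnp, against the positive values above, and 0.14 for Grn (limma, adjusted p = 0.65). No member was called on TPM, where limma's adjusted p ran from 0.54 to 0.78.

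Other genes of the same pathways were described by 7 lists, which hold 106 tested genes beside the members. Of these, 5 were higher and 12 lower in old brain at an adjusted p under 0.05 (edgeR), and their median log2 fold change was -0.0086 over a median of -9.2e-05 for all genes. In all, the background is 6.20% higher and 4.83% lower among all genes tested.

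The secretases and their subunits were the list to which the members Bace1 and Psen2 belong. None of 11 tested genes, these members included, was called by edgeR, with log2 fold changes from -0.13 to 0.10 and a median of -0.032. The largest in size was that of Bace2, the relative of beta-secretase, at -0.13 (edgeR, adjusted p = 0.71), with 2.61 to 4.69 CPM in young and 2.55 to 4.44 CPM in old brain. Adaptor and sorting genes of the precursor protein gave 0 of 23 at the same threshold, with a median of -8.8e-05. Here the largest was Sorl1, a sorting receptor for the precursor, at -0.14 (edgeR, adjusted p = 0.051). At an unadjusted p under 0.05 (edgeR) stood Sorl1, Adam9, an alpha-secretase candidate, and Rtn3, an inhibitor of beta-secretase. Of all tested genes, 26.0% passed this threshold. Values of Adam9 and Rtn3 did not overlap between the ages, as was so for 12.6% of all tested genes. Adam9 was at 59.4 to 63.3 CPM in young and 64.9 to 65.7 CPM in old brain, and Rtn3 at 945 to 954 and 872 to 932 CPM. Adam9 and Rtn3 were named after their values were seen.

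Among 9 enzymes able to degrade amyloid-beta, 1 was lower and none higher, with a median of -0.0047. Ece2, an endothelin-converting enzyme, fell by 0.29 on the log2 scale (standard error 0.051, edgeR, adjusted p = 0.0031), from 52.5 to 60.0 CPM in young to 44.6 to 48.5 CPM in old brain. The best known of these enzymes, neprilysin (Mme, log2 fold change -0.069, adjusted p = 0.57) and insulin-degrading enzyme (Ide, -0.022, adjusted p = 0.79), were not called (edgeR). The lysosomal protease gene Ctsd, at 0.42, narrowly missed the threshold (edgeR, adjusted p = 0.058).

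Tau kinases and phosphatases gave 1 higher and 5 lower of 28 genes, with a median of -0.043. In log2, Mapk3, the kinase ERK1, rose by 0.26 (standard error 0.033, edgeR, adjusted p = 0.00037), from 105 to 113 CPM in young to 127 to 132 CPM in old brain. Lower were Cdk5r2, an activator of the kinase Cdk5 (-0.21), the tau kinases Ttbk2 (-0.20), Mark1 (-0.17) and Mapk8 (-0.13), and Ppp2ca, a catalytic subunit of the phosphatase PP2A (-0.11), with adjusted p from 0.012 to 0.038 (edgeR). Of these, only Mark1 kept its call when each mouse was left out in turn, and Ppp2ca lost it in 8 of those 9 fits. Gsk3b (-0.044, adjusted p = 0.43) and Cdk5 (-0.061, adjusted p = 0.33), major tau kinases, were not called (edgeR).

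Mapt was not called, while other microtubule-binding proteins gave 1 higher and 4 lower of 16, with a median of -0.058. In log2, Map7 rose by 0.43 (standard error 0.033, edgeR, adjusted p = 7.7e-06), from 123 to 134 CPM in young to 169.9 to 175 CPM in old brain. The stathmins, which bind tubulin and destabilise microtubules, fell in 3 of 4 cases: Stmn2 by 0.27 (edgeR, adjusted p = 0.0025), Stmn3 by 0.24 (0.00043) and Stmn1 by 0.14 (0.023). Stmn2 is a neuron marker too. The dendritic Map2 fell by 0.14 (edgeR, adjusted p = 0.034) and lost the call on leaving out any of 6 single mice, and Stmn1 any of 4. The difference between Mapt and these genes was not tested.

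Of 6 tested genes of the prion protein family and its partners, 2 were lower and none higher, with a median of -0.11. Stip1, a co-chaperone that binds the prion protein, fell by 0.23 (standard error 0.051, edgeR, adjusted p = 0.011). The glutamate receptor gene Grm5 fell by 0.15 (adjusted p = 0.039, edgeR), a call lost on leaving out any of 7 single mice. The related Sprn, which encodes shadoo, was at -0.25 (edgeR, adjusted p = 0.082).

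Of the progranulin partners and lysosomal genes, 3 of 17 were higher and none lower, 16 had a positive value and the median was 0.10. Among all 18492 tested genes, 9243 had a positive value, 6.20% were called higher and 4.83% lower. Ctss, a cysteine protease, rose by 1.06 in log2 (standard error 0.19, edgeR, adjusted p = 0.0031). Lamp2, a lysosomal membrane protein, rose by 0.22 (edgeR, adjusted p = 0.0078). Without young replicate 4 the log2 fold changes were 1.37 for Ctss and 0.24 for Lamp2. Ctss is rich in microglia. The sorting receptor of progranulin, Sort1 (0.055, adjusted p = 0.46), the partner that carries it to the lysosome, Psap (0.071, adjusted p = 0.17), and Tmem106b (0.039, adjusted p = 0.54) were not called (edgeR).

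**Figure D5:**
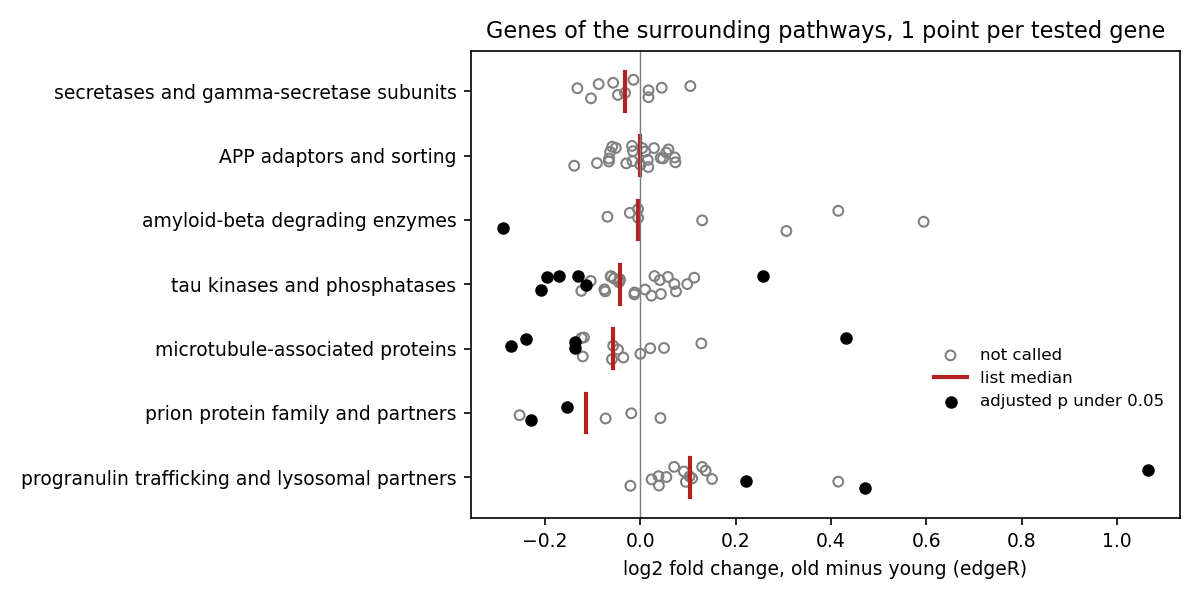
Each point is the log2 fold change between old and young brain of 1 tested gene in 7 lists of pathway genes, filled where the adjusted p was under 0.05, with the list median as a red line. Secretases and adaptors hold no filled point, Stmn1, Stmn2 and Stmn3 lie among the filled points at the left of the microtubule list, and the progranulin list has its median at 0.10.

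The genes with the most similar pattern over the 9 libraries were looked up for each member, as the smallest mean absolute difference of standardised log2 CPM among 9108 genes with a mean log2 CPM of at least 4. The nearest to Grn were Irs2, an adaptor of insulin signalling (0.19 SD units), and Clu, which encodes the chaperone clusterin (0.20), where the median over all candidates was 1.14. Prnp was nearest to Tomm20 (0.17) and Fam76a (0.18). Mapt was nearest to Picalm, a clathrin adaptor of the adaptor list (0.23). Aplp1 was nearest to Clip4 (0.31) and Sh3bgrl2 (0.33), Aplp2 to Mindy2 (0.19) and Cbx1 (0.25), Bace1 to Scarb1 (0.25) and Pdhx (0.27), Psen2 to Rars (0.28) and Minpp1 (0.29), and App to 2510009E07Rik (0.39) and Vrk3 (0.40). Among the members themselves the closest pair was Aplp1 and Prnp, at 0.63. The likeness is a description over 9 libraries that share their depth and their ages.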

How the data were processed

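RNA-seq counts of 5 young and 4 old brains were analysed. Per the paper's methods, the authors trimmed reads, aligned them with STAR to GRCm38 and took featureCounts totals per gene from unique alignments to exons. The labels name mm10 and DESeq2. The deposited counts are whole numbers per Ensembl gene. The authors' normalized counts are a signal, each library's counts divided by 1 size factor, for 17994 genes, and the deposited TPM values use gene lengths not given in the sources used here. Each table held 1 column of per-sample values that matched no sample and was not used.

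The low-count filter was filterByExpr with 10 as its count minimum and 15 as its minimum total. Libraries were scaled with TMM and tested with edgeR's quasi-likelihood test (default, non-robust dispersions) with Benjamini-Hochberg adjustment. Intervals (95%) come from the log2 fold change, its standard error and the total (residual plus prior) degrees of freedom. Log2 CPM used a prior count of 2. Software was edgeR 4.0.16, DESeq2 1.42.0 and limma 3.58.1 in R 4.3.3. Symbols and lengths came from GENCODE M21, with none for 345 IDs. The smallest chi-square per degree of freedom between libraries of one age was 4.05 in young and 4.84 in old mice, so no libraries were merged as duplicates. The test was checked on simulated counts.

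Members and lists were chosen with earlier results of these data known. The pathway genes named are those with an adjusted p under 0.05 (at most 6 per list) or, where none passed, the one with the largest change, and further pathway genes were picked with their values known. Of the listed genes, Apbb3 had no row under its symbol, and Prnd and Slpi did not pass the filter. Some genes that this rule names are not reported here, and list counts include them. Alternatives were other scalings, filters, tests, TPM, a replicate block and each mouse left out.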

Additional observations from a re-analysis of the deposited data

Results flagged for a closer look

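Of 56 groups of values looked at, 7 held a mouse far from the rest of its age, where about 2.8 would be flagged by chance. The number is the gap of that mouse to its nearest neighbour as a share of the whole range of its group.

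For Mapt, old replicate 4 lay at 9.32 on the log2 CPM scale and the other old mice at 9.25 to 9.26 (gap 0.839). The tau kinase gene Mapk8 was at 6.40 in old replicate 4 and 6.49 to 6.50 in the other old mice (gap 0.945). The ratio of Aplp1 to App in old replicate 4 was -0.74 in log2 and -0.69 in the others (gap 0.972). The ratio of Aplp2 to App in old replicate 3 was -1.58, against -1.45 to -1.43 (gap 0.859).

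Among young mice, Ctss was at 6.06 in replicate 4 and 4.96 to 4.997 in the others (gap 0.97). Ppp2ca was at 8.45 in young replicate 2, against 8.37 to 8.39 (gap 0.768), and Stmn1 at 8.10 in young replicate 3, against 8.16 to 8.18 (gap 0.729).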

How the results depend on the processing

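Under the alternatives, 190 of 212 log2 fold changes of members and log2 ratios kept their direction and their side of the threshold, as did 279 of 357 log2 fold changes of other genes, and 102 of 130 counts of genes stayed within 1.5 times the count reported. No member was called (0 of 8) with upper quartile scaling, on log2(TPM + 1), on log2(TPM + 0.1), with robust dispersions or at an adjusted p under 0.01, and leaving out 1 mouse gave 0 to 1. For Grn the log2 fold change was 0.30 with upper quartile scaling (adjusted p = 0.052, edgeR), 0.14 on log2(TPM + 1) and 0.15 on log2(TPM + 0.1) (adjusted p = 0.65 and 0.66, limma), 0.30 with robust dispersions (adjusted p = 0.0998, edgeR), and 0.25 to 0.41 without single mice. The sign turned for Aplp1 (-0.11 on both TPM scales), Mapt (-0.14 on both) and Prnp (-0.097 on both), where the median of all genes moved to -0.14 and -0.16. App turned to 0.0027 with the replicate block, and also without young replicate 2, whose number no old mouse carries. It ran from -0.016 to 0.0035 without single mice. The ratio of Aplp2 to App ran from -0.036 to 0.014 without single mice. The causes were not tested.

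All genes with an adjusted p under 0.05 numbered 594 on log2(TPM + 1), 600 on log2(TPM + 0.1), 780 at an adjusted p under 0.01, and 1454 to 1942 without single mice, and those past both thresholds 270 at an adjusted p under 0.01 and 392 to 604 without single mice. Pathway genes called higher numbered 8 in DESeq2, 1 on each TPM scale, 5 to 9 without single mice and 9 without young replicate 4, and those called lower 0 on each TPM scale, 6 with the replicate block and 6 to 14 without single mice. App took place 1 in the order of levels with TPM or the length that TPM implies, against place 3. No clear pairing of mice by replicate number was seen: the correlations of deviations were 0.17, -0.12, 0.088 and -0.024 for numbers 1, 3, 4 and 5. Old replicate 1 was closest to the young mouse of its own number. So few weak values cannot settle whether mice of one number were handled together. With the number as a block Grn was at 0.31 (adjusted p = 0.031, edgeR). Young replicate 2 has no old mouse of its number, so it did not inform the age difference of the block fit. Psen2, with 252 to 389 counts per library, had the least depth.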
